A study of Mus musculus with 8 samples.

Results

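Schwann cells are the glia of peripheral nerves, and 8 genes that mark them or the nerves they wrap were followed through lower molars at embryonic day 18.5 (E18.5). The genes were Sox10, Foxd3, Erbb3, Ngfr, Gfra3, Mbp, Fabp7 and S100b, taken by symbol from the 43629 Ensembl genes counted by RNA sequencing in each embryo, and all 8 were found. Molars of 4 mutant embryos, K14Cre;Jagged1fl/fl, were compared with those of 4 Jagged1fl/fl littermates without Cre, called WT in the study and controls here. Both groups therefore carried the floxed Jagged1 alleles, and the Cre was driven by the keratin 14 promoter, which is active in epithelium. Each library held the lower molars of both sides of 1 embryo (J3, J5, J6 and J7 in the controls, K14J26, K14J28, K14J29 and K14J30 in the mutants), so p-values measure the spread between embryos. The sex and the litter of single embryos were not given.

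Schwann cells arise from the neural crest as precursors that travel along growing axons. The transcription factor Sox10 is needed through the whole lineage, neuregulin from axons acts through Erbb3 to keep the precursors alive, and myelin proteins such as Mbp are made late, once axons are sorted. In teeth, sensory axons and their glia first gather around the germ in the dental follicle and enter the pulp later, and glia along these nerves are known as a source of pulp cells and odontoblasts. All of the values below come from whole molars, where fewer cells of a type and less RNA in each cell cannot be told apart.

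Between 17327224 and 29792467 reads were counted per library, so that 3 reads correspond to between 0.0998 and 0.166 CPM (counts scaled per 1e+06 reads of the library). Jag1, the deleted gene, had between 95.2 and 104 CPM in the controls and between 34 and 57.1 CPM in the mutants. The 10 tooth genes chosen to check the tissue, among them Krt14, Krt5, Sp6, Msx1, Pax9, Barx1, Dspp and Col1a1, were all detected. Their summed level was between 9720 and 13500 CPM in the controls and between 13300 and 31600 CPM in the mutants. Transcripts of 5 enamel genes (Amelx, Ambn, Enam, Mmp20 and Klk4) summed to between 557 and 3250 CPM in the controls and between 3500 and 114000 CPM in the mutants, with the highest value in K14J26. The 10 skeletal muscle genes summed to 432 CPM in control J6 and 218 CPM in control J7, against at most 21.8 CPM in any other embryo, and Ckm alone of them was lower in the mutants by the test described next. At an unadjusted p under 0.05, 9 of them were lower and 0 higher, where 15.7% of all tested genes were lower and 19.1% higher. In DESeq2 7 of them were lower and 0 higher, where 10% of all tested genes were lower and 13.1% higher. Of the tooth genes, Krt14, Sp6, Dspp and Col1a1 were higher and Msx1, Pax9 and Barx1 lower by that test, where 9.52% of all tested genes were higher and 6.61% lower.

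Of the 8 genes, Fabp7 was higher in the mutants, Ngfr and Erbb3 were lower, and the other 5 did not pass the test. A gene passed at an adjusted p under 0.05, where p came from the quasi-likelihood test of edgeR and was adjusted by Benjamini and Hochberg's method over the 17129 genes tested. By this rule 9.52% of all tested genes were higher and 6.61% were lower in the mutants. By the criteria of the study, read here as p up to 0.05 before adjustment and a fold of at least 0.5 on the log2 scale, neither of which its methods spell out, Fabp7 and Ngfr passed and Erbb3 fell short of the fold, where 8.33% of all tested genes were higher and 5.85% lower. The mutant values lay wholly above the control values for Fabp7 and wholly below them for Ngfr and Erbb3, which was so for 12.6% and 11.6% of all tested genes.

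The start regions of the genes that changed most in each direction are shown first, because Fabp7 and Ngfr moved in opposite directions. They are the 250 bases before and 50 bases after the gene start, from RefSeq on GRCm38.p6. Of the 8 genes, 4 (Foxd3, Ngfr, Fabp7 and S100b) had such an entry. For Fabp7 and Ngfr this RefSeq start differs from the start in the GENCODE gene positions given below. Capitals mark TGGGAA on either strand, the core of the site bound by Rbpj, the nuclear partner of Notch. Fabp7 lies on the plus strand at chr10:57784673-57784972 and Ngfr on the minus strand at chr11:95587649-95587948.

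Fabp7: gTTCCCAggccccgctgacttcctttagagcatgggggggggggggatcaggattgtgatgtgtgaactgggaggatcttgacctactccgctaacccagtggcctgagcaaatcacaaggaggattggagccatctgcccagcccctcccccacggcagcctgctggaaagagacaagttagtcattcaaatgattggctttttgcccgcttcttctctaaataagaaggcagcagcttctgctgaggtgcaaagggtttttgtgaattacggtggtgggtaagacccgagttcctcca
Ngfr: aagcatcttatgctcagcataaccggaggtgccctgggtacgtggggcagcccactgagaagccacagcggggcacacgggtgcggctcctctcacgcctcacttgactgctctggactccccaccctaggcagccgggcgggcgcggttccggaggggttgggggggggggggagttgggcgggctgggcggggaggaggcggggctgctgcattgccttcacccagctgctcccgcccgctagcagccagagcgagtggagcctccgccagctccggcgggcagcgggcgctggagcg

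The Fabp7 window held TGGGAA once, on the strand opposite to the gene, starting 249 bases before the gene start, and the S100b window held it once, starting 234 bases before. It was not among the letters of the Ngfr and Foxd3 windows. Of 32851 mouse windows of this length, 25.6% hold TGGGAA on either strand. The letters ACAAAG and ACAATG, forms of the core that Sox proteins bind, occurred in none of the 4 windows on either strand, and 18.7% and 12.6% of all windows hold them. These matches describe the letters and not a bound site.

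Fabp7, the brain lipid binding protein that Schwann cell precursors and radial glia make to carry fatty acids, was 2.16-fold higher in the mutants. It had 1.66, 3.21, 3.42 and 2.13 CPM in the controls J3, J5, J6 and J7, and 6.10, 3.89, 7.27 and 5.24 CPM in mutants K14J26, K14J28, K14J29 and K14J30. The lowest mutant, K14J28, lay just above the highest control, J6. Mean Fabp7 was 2.61 ± 0.849 CPM (SD, n = 4) in controls and 5.63 ± 1.43 CPM (SD, n = 4) in mutants. The log2 fold change was 1.11 (SE, the standard error, 0.27; 95% interval 0.50 to 1.71; adjusted p = 0.0282). The gene is on chromosome 10 of GRCm38 from 57784881 to 57788450. Summed enamel RNA was also higher in every mutant than in any control. The enamel genes summed to 680, 1900, 3250 and 557 CPM in the controls J3, J5, J6 and J7, and to 114000, 3500, 25800 and 9640 CPM in mutants K14J26, K14J28, K14J29 and K14J30. Fabp7 and the enamel sum were both highest in J6 among the controls and both lowest in K14J28 among the mutants, but the highest mutant was K14J29 for Fabp7 and K14J26 for the enamel sum. By the same test 4 of the 5 enamel genes were higher in the mutants (Amelx, Ambn, Enam and Mmp20) and none was lower, where 9.52% of all tested genes were higher and 6.61% lower, and Klk4 had an adjusted p of 0.0533. The part of ameloblast RNA in the Fabp7 difference was not tested.

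Ngfr, the p75 neurotrophin receptor found on Schwann cell precursors and immature Schwann cells as well as on neural crest mesenchyme, was lower in the mutants. It had 37.6, 37.4, 34.7 and 48.6 CPM in the controls J3, J5, J6 and J7, and 27.9, 30.7, 22.8 and 28 CPM in mutants K14J26, K14J28, K14J29 and K14J30. Every mutant was below every control, and J7 stood highest. The means were 39.6 ± 6.17 and 27.4 ± 3.30 CPM (SD, n = 4 each). Ngfr thus had a log2 fold change of -0.53 (SE 0.12, 95% interval -0.82 to -0.25, adjusted p = 0.0250). The gene lies on chromosome 11 from 95568818 to 95587735, with 1 annotated transcript.

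Erbb3, the receptor through which neuregulin 1 acts on Schwann cells, was lower by less. It had 39.3, 33.7, 35.9 and 37.9 CPM in the controls J3, J5, J6 and J7, and 22.6, 31.0, 29.9 and 30.2 CPM in mutants K14J26, K14J28, K14J29 and K14J30. The groups did not overlap, and 3 of the 4 mutants lay close together while K14J26, the embryo richest in enamel RNA, was the lowest. The means were 36.7 ± 2.44 and 28.4 ± 3.91 CPM (SD, n = 4 each). Erbb3 thus had a log2 fold change of -0.37 (SE 0.11, 95% interval -0.61 to -0.13, adjusted p = 0.0450). Without K14J26 the log2 fold change was -0.27. Erbb3 lies on chromosome 10 from 128567523 to 128589652.

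**Figure D1:**
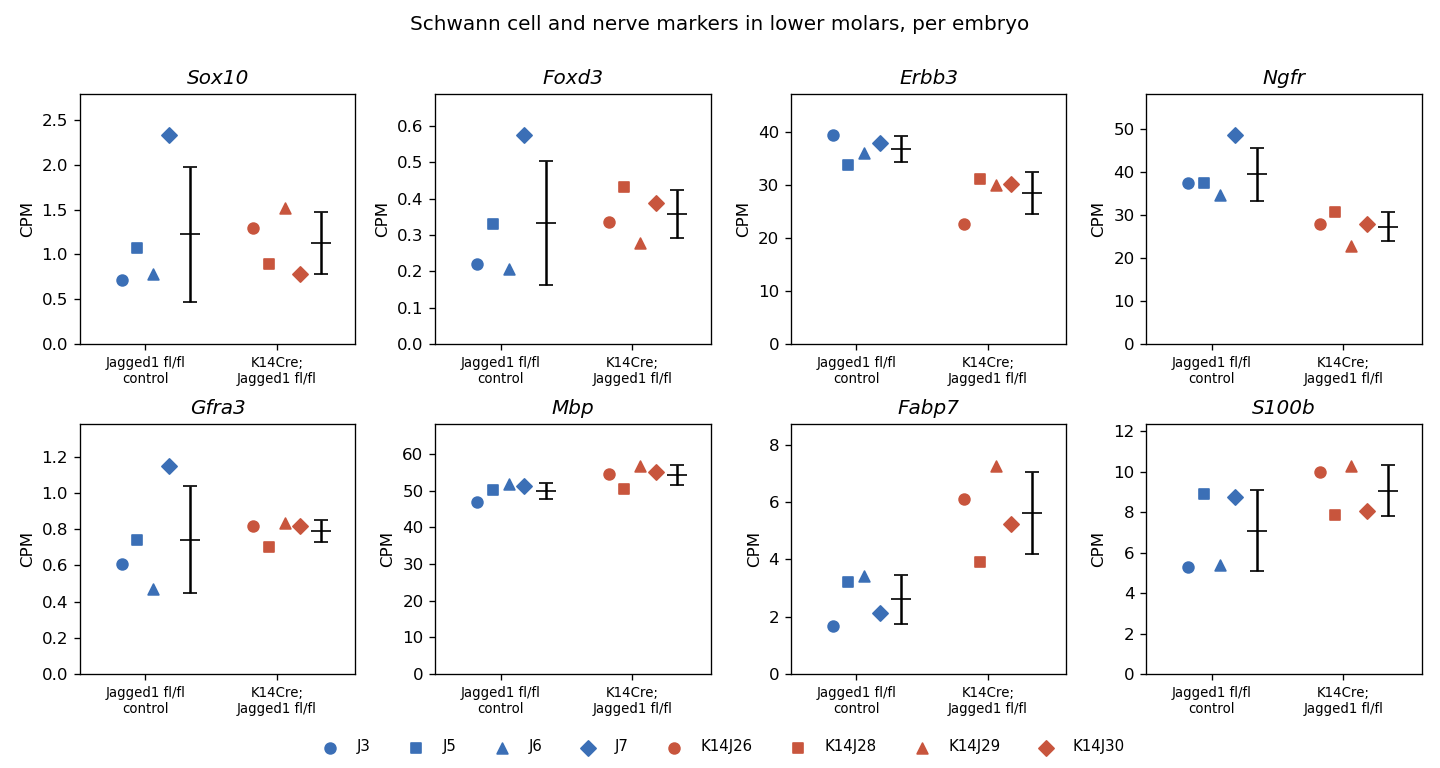
Level of each of the 8 genes in CPM (vertical axes, each from 0) in the 4 Jagged1fl/fl controls (blue) and the 4 K14Cre;Jagged1fl/fl mutants (red), 1 symbol per embryo, with the mean and SD of each group in black. Fabp7 is higher in all mutants and Ngfr and Erbb3 are lower in all mutants, while in Sox10, Foxd3 and Gfra3 control J7 stands above all other embryos.

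The transcription factors that define the lineage were scarce and did not pass the test. Sox10 had 13, 26, 15 and 69 reads in the controls J3, J5, J6 and J7, or 0.719, 1.07, 0.778 and 2.33 CPM. It had 27, 27, 44 and 20 reads, or 1.30, 0.898, 1.52 and 0.776 CPM, in mutants K14J26, K14J28, K14J29 and K14J30. The groups overlapped, with J7 highest. Sox10 had a log2 fold change of -0.16 (SE 0.41, adjusted p = 0.808), and its 95% interval ran from -1.07 to 0.75. Without J7 the log2 fold change was 0.37, of the opposite sign, with an adjusted p of 0.470, and over all alternatives run the adjusted p lay between 0.470 and 0.979. Sox10 is on chromosome 15 from 79154908 to 79165240.

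Foxd3, a forkhead factor of neural crest cells and Schwann cell precursors, was the scarcest of the 8. It had 4, 8, 4 and 17 reads in the controls J3, J5, J6 and J7 and 7, 13, 8 and 10 reads in mutants K14J26, K14J28, K14J29 and K14J30, which is 0.333 ± 0.170 and 0.358 ± 0.0669 CPM (SD, n = 4 each). It passed the minimum of 10 reads in 2 embryos of a group only through the mutants. The log2 fold change was 0.05 with a 95% interval from -0.82 to 0.92 (adjusted p = 0.945, edgeR), which covers changes in either direction. The part of the low read number in the width of this interval was not tested.

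Gfra3, the co-receptor that binds artemin on nerve cells and is also made by Schwann cell precursors, had 0.609, 0.742, 0.467 and 1.15 CPM in the controls J3, J5, J6 and J7. It had 0.817, 0.698, 0.831 and 0.814 CPM in mutants K14J26, K14J28, K14J29 and K14J30. The controls spread on both sides of the mutants. The log2 fold change was 0.06 with a 95% interval from -0.61 to 0.72 (adjusted p = 0.907, edgeR). Both Gfra3 and Mbp lie on chromosome 18, from 34689898 to 34720387 and from 82475146 to 82585637.

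Mbp, myelin basic protein, was the most abundant of the 8 in CPM and varied least. It had 47.0, 50.1, 51.9 and 51.3 CPM in the controls J3, J5, J6 and J7 and 54.6, 50.6, 56.9 and 55.2 CPM in mutants K14J26, K14J28, K14J29 and K14J30. The groups overlapped at K14J28. The log2 fold change was 0.12 (SE 0.06, adjusted p = 0.220), and its 95% interval, from -0.03 to 0.26, was the narrowest of the 8. The gene model spans 110492 bases with 16 annotated transcripts, which the counts add together, and besides the myelin proteins the gene is known to make golli proteins from an upstream start in cells that form no myelin.

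S100b, a calcium binding protein of glia that cartilage cells make as well, had 5.31, 8.90, 5.39 and 8.74 CPM in the controls J3, J5, J6 and J7. It had 9.99, 7.88, 10.3 and 8.07 CPM in mutants K14J26, K14J28, K14J29 and K14J30. J3 and J6 were low, and J5 and J7 lay among the mutants. The log2 fold change was 0.34 (SE 0.20, 95% interval -0.11 to 0.80, adjusted p = 0.252, edgeR). Dip2a, which had between 1102 and 3623 reads, overlaps S100b on the opposite strand without sharing exon bases.

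Per kilobase of exon, the levels of the 8 genes differed widely, with Fabp7 in the controls between the abundant and the scarce genes. In the controls Ngfr led with 11.5 ± 1.79 CPM per kilobase (SD, n = 4). Erbb3 with 6.10 ± 0.406, Mbp with 5.92 ± 0.260 and S100b with 4.78 ± 1.35 CPM per kilobase followed, and these neighbours in the order did not differ beyond their spread. Fabp7 had 2.08 ± 0.679 CPM per kilobase. Sox10 with 0.401 ± 0.247 and Gfra3 with 0.371 ± 0.147 CPM per kilobase could not be set apart, and Foxd3 was last with 0.143 ± 0.0730. Erbb3 was thus 15.2-fold and Ngfr 28.6-fold above Sox10 in the controls on the scale per kilobase, and 12.8-fold and 21.6-fold above it in the mutants. The part of cells other than Schwann cells in the levels of the abundant genes was not tested.

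The glia of the brain, pigment cells, which share Sox10 and Erbb3, and cartilage were looked for by their own markers. Of the oligodendrocyte genes, Olig1 and Olig2 had no read in any embryo, which allows at most 0.166 CPM per library, and Mog, Mobp and Opalin had 3, 2 and 1 reads over all 8 embryos. Only Myrf of that list was tested and it did not pass. Genes of pigment cells were present in part. The pigment enzymes Tyr and Tyrp1 had 1 and 0 reads in all, and Mlana, Oca2 and Slc45a2 had 26, 29 and 3. Dct had between 31 and 69 and Pmel between 16 and 41 reads in each embryo. Slc24a5 and Trpm1 had 737 and 280 reads in all, against 241 for Sox10. Per kilobase of exon, Slc24a5 had 1.80 CPM in controls and 1.46 CPM in mutants. Trpm1 had 0.138 and 0.0608, and Sox10 had 0.401 and 0.368 CPM per kilobase. Mitf, which other cells also make, had a mean of 26.1 CPM. None of the 7 melanocyte genes tested passed in edgeR, with 2 lower at an unadjusted p under 0.05 (15.7% of all tested genes) and 2 lower in DESeq2 (10% of all tested genes). The part of pigment cells in the levels of the shared markers was not tested. Matn1, a cartilage matrix protein, had 9 reads in all, and Col2a1 had between 8.22 and 15.6 CPM. Of the 10 cartilage genes tested, Col11a2 was higher and Hapln1 lower, where 9.52% of all tested genes were higher and 6.61% lower. By sign, 4 of the 10 had a positive and 6 a negative log2 fold change, with a median of -0.25. The list summed to between 321 and 452 CPM in the controls and between 389 and 1250 CPM in the mutants. Col11a2 alone had between 53.9 and 144 CPM in the controls and between 149 and 720 CPM in the mutants. Vessel genes (Pecam1, Cdh5, Kdr, Tek, Emcn and Cldn5) summed to between 275 and 305 CPM in controls and between 223 and 275 CPM in mutants, and none passed in edgeR. Of these 6 genes 2 were lower at an unadjusted p under 0.05 and 2 in DESeq2, beside the same 15.7% and 10% of all tested genes. White blood cell genes (Ptprc, Csf1r, Cd68, Adgre1, C1qa and Lyz2) summed to between 75.8 and 101 CPM in controls and between 109 and 185 CPM in mutants. Lyz2 alone of the 6 was higher by the test, where 9.52% of all tested genes were higher. Its mean was 15.6 CPM in controls and 37.2 CPM in mutants, and the groups overlapped for the other genes. By sign, 4 of the 6 had a positive and 2 a negative log2 fold change. Csf1r and Cd68 were highest in K14J28, at 92.7 and 42.3 CPM.

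A further 34 genes of the Schwann cell lineage were examined, of which 30 had enough reads to be tested. Of these, 3 were higher and 2 lower in the mutants and 25 did not pass, shares near those of all tested genes (9.52% higher and 6.61% lower), and their median log2 fold change was -0.14 against 0.01 over all tested genes. The higher genes were Pou3f2, Col28a1 and Drp2. Pou3f2, a POU factor that acts beside Pou3f1 before myelination, rose from 0.379 ± 0.0828 to 2.19 ± 0.949 CPM (SD, n = 4 each; log2 fold change 2.52, SE 0.34, adjusted p = 0.00717 in edgeR). It had between 6 and 10 reads in each control and entered the test only through the mutants, where it was high. Col28a1, a collagen of the Schwann cell surface, rose from 2.37 ± 0.364 to 4.70 ± 1.16 CPM (log2 fold change 0.99, adjusted p = 0.0188). Drp2 and Prx encode partners in the complex that links the myelin sheath to the basal lamina, and they moved in opposite directions. Drp2 rose from 29.6 ± 2.57 to 45.9 ± 5.41 CPM (log2 fold change 0.63, adjusted p = 0.00991) and Prx fell from 12.9 ± 1.44 to 9.97 ± 0.330 CPM (log2 fold change -0.37, adjusted p = 0.0376). Tfap2a, a factor of neural crest and of Schwann cell precursors that epithelium also makes, fell from 57.6 ± 4.81 to 27.5 ± 7.68 CPM (log2 fold change -1.06, adjusted p = 0.0104). In all 5 the groups did not overlap. Over the 30 tested genes of the list the mutants lay wholly above the controls in 3 and wholly below them in 3. The shares of all tested genes were 12.6% and 11.6%. Pou3f2, Drp2 and Tfap2a were called in each of the 8 fits that left out 1 embryo, Col28a1 in 4 and Prx in 2. Prx was also not called without a filter or under the criteria of the study.

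The 4 most abundant genes of this list gave no call. Pmp22, a myelin membrane protein, had 84.9 ± 12.2 CPM in controls and 80.5 ± 12.4 CPM in mutants (log2 fold change -0.08, adjusted p = 0.711, edgeR). For the adhesion molecule Ncam1 the log2 fold change was -0.23 (adjusted p = 0.125), for Nab1 0.34 (adjusted p = 0.0781) and for Zeb2 0.02 (adjusted p = 0.914). For Egr2, the factor that switches on myelin genes, named here after its values were seen, the groups did not overlap, with 1.10 ± 0.361 CPM in controls and 0.575 ± 0.130 CPM in mutants, but the log2 fold change of -0.94 had an adjusted p of 0.0584.

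**Figure D2:**
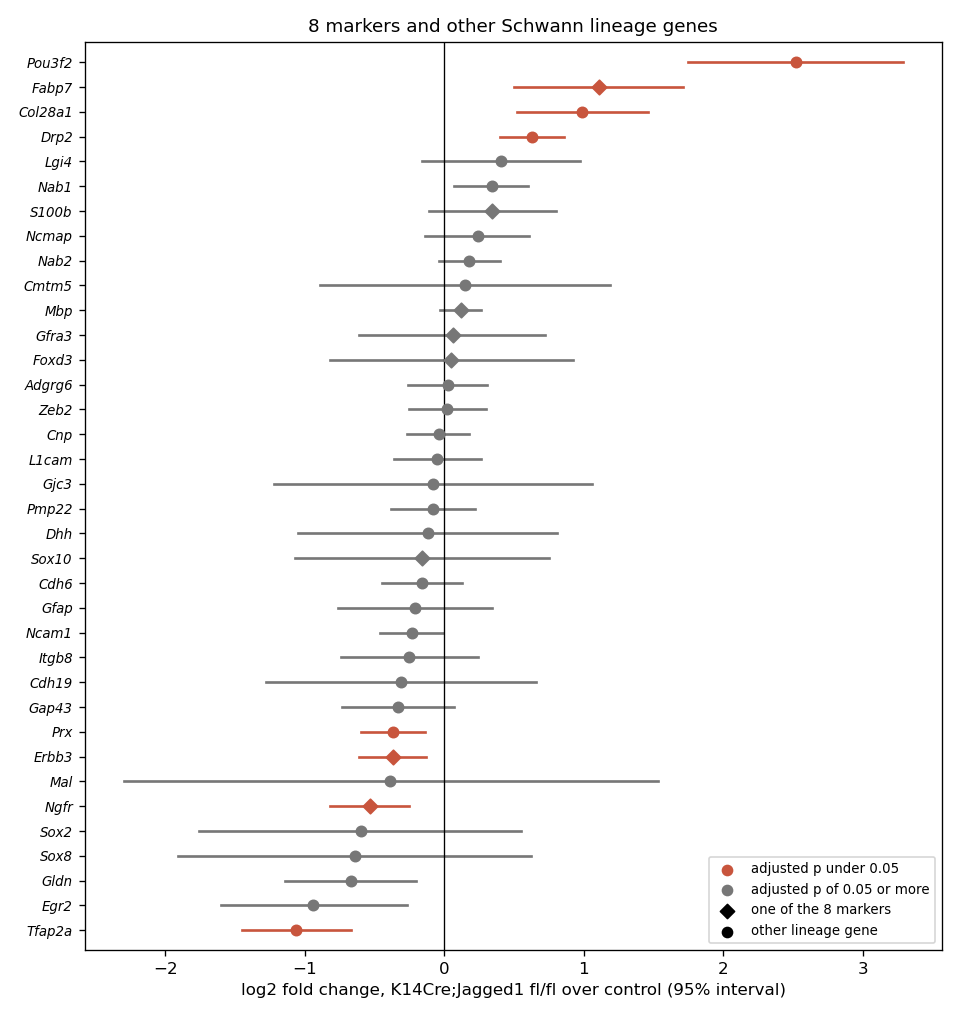
Log2 fold change of mutant over control (horizontal axis) with its 95% interval for the 8 markers (diamonds) and 28 of the 30 tested genes of the Schwann cell lineage list (circles), sorted by value, with genes at an adjusted p under 0.05 in red. Most intervals cover 0, those of scarce genes such as Sox10 and Foxd3 are wide, and that of Mbp is narrow.

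Many genes of this lineage stood highest in control J7, a pattern noticed in the data. Of the 30 tested lineage genes, 16 (53.3%) had their highest level of the 8 embryos in J7, against 13.7% of all tested genes. Other lists also lay above that share, with 33.3% of the vessel genes, 31.8% of the receptor partners, 30% of the cartilage genes and 28.6% of the melanocyte genes highest in J7, and the differences between lists were not tested. The same was true of Sox10, Foxd3, Gfra3 and Ngfr among the 8 markers. Levels in J7 were also set against the median of the other 3 controls, which was not done for all tested genes. The level in J7 was higher than this median for 21 of the 30 tested lineage genes and lower for 9. It was 2.99 times the median for Sox10, 1.89 times for Gfra3, 1.06 times for Erbb3, 1.02 times for Mbp and 0.662 times for Fabp7. Among lineage genes picked after their values were seen, it was 2.46 times for both Dhh and Cdh19, against 0.814 times for Lgi4, 0.837 times for Sox2 and 0.853 times for Nab2. The list summed to 673 CPM in J7 and to between 584 and 640 CPM in the other embryos. Dhh is a signal that Schwann cells send to the cells of the nerve sheath, and Cdh19 is a cadherin of Schwann cell precursors. J7 was also 1 of the 2 controls with skeletal muscle RNA, and the part of carried-over tissue in its lineage values was not tested. With J7 left out, the number of tested lineage genes with a negative log2 fold change went from 20 of 30 to 14 of 29. Their median log2 fold change went from -0.14 to 0.01. Over all tested genes 8452 of 17129 were negative with all 8 embryos, and this count was not made without J7. The median over all tested genes was 0.01 with all 8 embryos and 0 without J7.

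**Figure D3:**
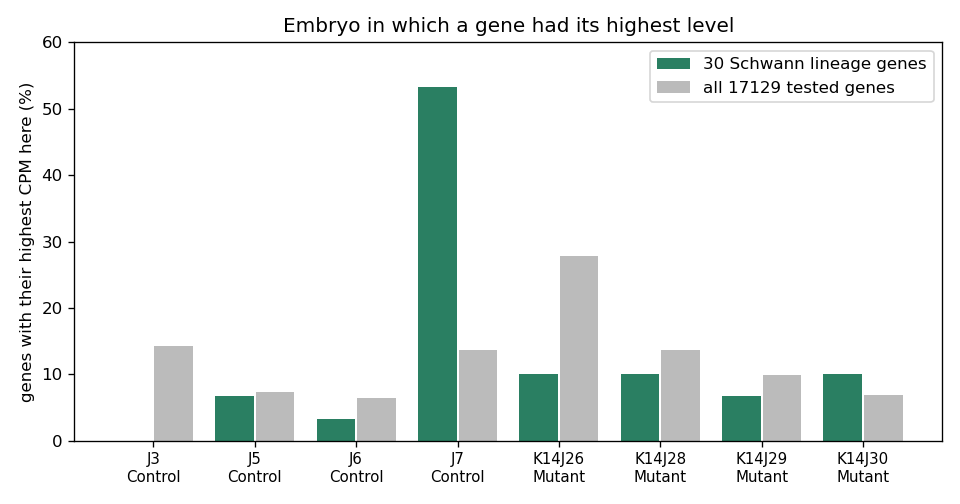
Percentage of genes (vertical axis) that had their highest CPM in each embryo (horizontal axis), for the 30 tested Schwann lineage genes in green and for all 17129 tested genes in grey. Control J7 holds 53.3% of the lineage genes and 13.7% of all genes.

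The ligands and partner receptors of Erbb3, Ngfr and Gfra3 were next compared, and 22 of these 26 genes were tested. Of them 2 were higher, 6 lower and 14 did not pass, where 9.52% of all tested genes were higher and 6.61% lower, and their median log2 fold change was -0.28. Without J3, without J7 or without K14J29, 0 were higher and Nrg1 alone was lower. In these 3 fits the shares of all tested genes fell as well, to 2.18%, 1.77% and 1.48% higher and to 1.68%, 1.39% and 1% lower. Over the 8 fits that left out 1 embryo, Nrg1 was called in 8, Gdnf, Ntrk2 and Lingo1 in 5 each, Tnfrsf19 in 4, Sort1 and Gfra4 in 3 each and Gfra1 in 2. By library size only Gfra1 and Gfra4 were not called, and without a filter Gfra4 was not. The filter at a mean of at least 1 CPM took out Nrg1, with a mean of 0.473 CPM, so it was not tested there. The criteria of the study left out Sort1, Ntrk2 and Tnfrsf19 but took in other partners. By them 3 partners were higher and 7 lower, where 8.33% of all tested genes were higher and 5.85% lower. Nrg1, the ligand for Erbb3, fell from 0.779 ± 0.0992 to 0.167 ± 0.0997 CPM (SD, n = 4 each; log2 fold change -2.16, SE 0.39, adjusted p = 0.0138 in edgeR). It was scarce, with 88 reads over all 8 embryos, and it entered the test only through the controls, where it was high. Erbb2, the partner with which Erbb3 signals, had 74.1 ± 4.50 CPM in controls and 67.9 ± 4.53 CPM in mutants (log2 fold change -0.13, adjusted p = 0.239), and its groups overlapped.

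Among the partners of Ngfr, Ntrk2, the receptor for Bdnf, fell from 101 ± 5.16 to 82.4 ± 4.69 CPM (log2 fold change -0.30, adjusted p = 0.0209, edgeR). Lingo1, which joins Ngfr in a receptor for myelin inhibitors, fell from 3.09 ± 0.408 to 1.35 ± 0.452 CPM (log2 fold change -1.18, adjusted p = 0.0172). Tnfrsf19, which can take the place of Ngfr in that receptor, fell from 392 ± 37.4 to 305 ± 19.2 CPM (log2 fold change -0.36, adjusted p = 0.0233). Sort1, the co-receptor of Ngfr for precursors of neurotrophins, rose from 70.7 ± 5.79 to 95.1 ± 14.2 CPM (log2 fold change 0.43, adjusted p = 0.0321).

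In the Gdnf family, to which the ligand of Gfra3 belongs, the members moved in both directions. Gdnf rose from 6.73 ± 1.63 to 11.8 ± 1.61 CPM (log2 fold change 0.81, adjusted p = 0.0221, edgeR). Its co-receptor Gfra1 fell from 34.3 ± 1.14 to 21.8 ± 6.19 CPM (log2 fold change -0.65, adjusted p = 0.0440) and Gfra4 fell from 9.67 ± 0.401 to 6.28 ± 1.59 CPM (log2 fold change -0.62, adjusted p = 0.0432). Further genes of the family are named after their values were seen. Artn, the ligand of Gfra3, had 7.38 ± 1.21 CPM in controls and 6.4 ± 3.14 CPM in mutants with an adjusted p of 0.634, and Ret, the receptor that all of these share, had 1.74 ± 0.492 and 2.96 ± 0.607 CPM with an adjusted p of 0.0587.

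**Figure D4:**
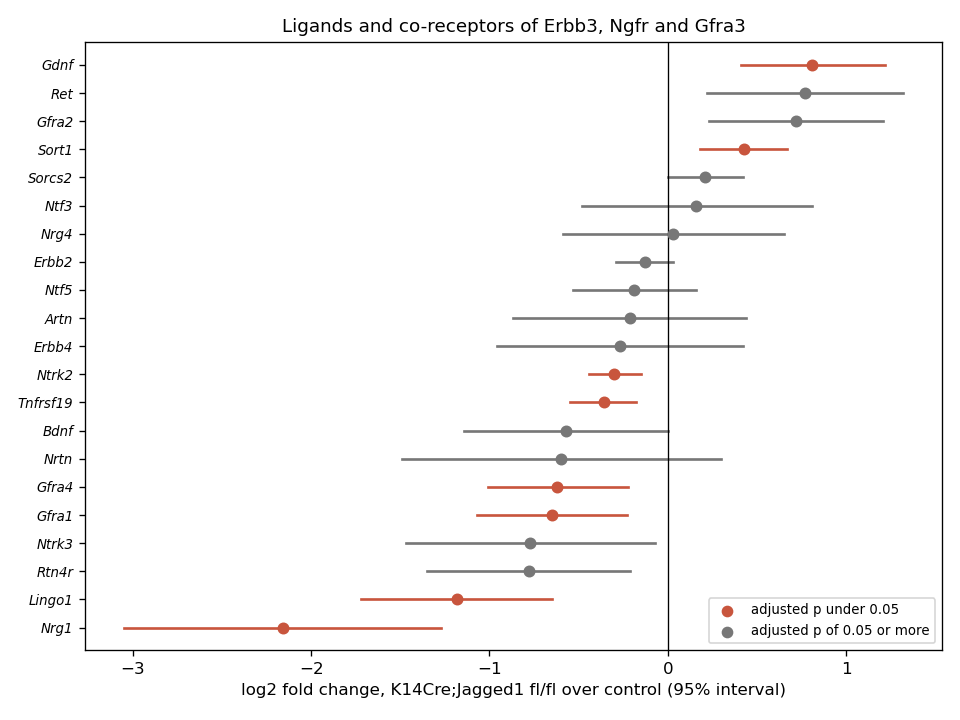
Log2 fold change of mutant over control (horizontal axis) with its 95% interval for 21 of the 22 tested ligands and co-receptors of Erbb3, Ngfr and Gfra3, sorted by value, with genes at an adjusted p under 0.05 in red. Nrg1 and Lingo1 lie farthest to the left and Gdnf and Sort1 are the red points to the right of 0.

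Of 24 genes of neurons themselves, 11 had too few reads to be tested and 10 had a mean above 1 CPM. Among the 13 tested, Tubb3, a tubulin of neurons that other cells also make, was higher, from 159 ± 15.9 to 223 ± 42.1 CPM (SD, n = 4 each), with a log2 fold change of 0.48 (adjusted p = 0.0448, edgeR) and overlapping groups. This call was lost in 7 of the 8 fits that left out 1 embryo, all but that without K14J28, as well as by upper-quartile scaling, by library size only, under the criteria of the study and with J6 and J7 both left out. Among the 13, none was lower in edgeR at an adjusted p under 0.05, where 9.52% of all tested genes were higher and 6.61% lower. At an unadjusted p under 0.05, 4 were higher and 4 lower (19.1% and 15.7% of all tested genes), and in DESeq2 2 were higher and 2 lower (13.1% and 10%). The 4 lower at an unadjusted p under 0.05 included Nefl and P2rx3. Both entered the test only through the controls, where they were high. Prph, Nefl and P2rx3 are named after their values were seen. Prph, an intermediate filament of peripheral neurons, had 32 reads over all embryos and was not tested. Nefl, a neurofilament of axons, entered the test only through the controls and had 0.725 ± 0.329 CPM in controls and 0.269 ± 0.139 CPM in mutants (log2 fold change -1.38, adjusted p = 0.0632). Stmn2 (log2 fold change 0.36, adjusted p = 0.283), Uchl1 (1, adjusted p = 0.105) and Th (0.41, adjusted p = 0.191) did not pass.

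The calls on Fabp7, Ngfr and Erbb3 did not hold in every fit that left out an embryo. With each embryo left out in turn, the log2 fold change of Fabp7 stayed between 0.95 and 1.26, that of Ngfr between -0.60 and -0.43 and that of Erbb3 between -0.42 and -0.27. The adjusted p was under 0.05 in 4 of these 8 fits for Fabp7, in 4 for Ngfr and in 2 for Erbb3. For Fabp7 it was 0.0713 without J3, 0.0565 without J5, 0.0866 without J7 and 0.0837 without K14J29. For Ngfr the corresponding values were 0.0602, 0.0569, 0.0632 and 0.0720. For Erbb3 they were 0.117, 0.0721, 0.115 and 0.0923, with 0.0858 without J6 and 0.0625 without K14J30. In the fits without J3, J5, J7 or K14J29 the number of genes called over the whole table also fell, to 373, 451, 300 and 250 higher genes from 1631. With J6 and J7 both left out, the adjusted p was 0.159 for Fabp7, 0.15 for Ngfr and 0.233 for Erbb3, and 3 higher and 4 lower genes were called in the whole table.

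**Figure D5:**
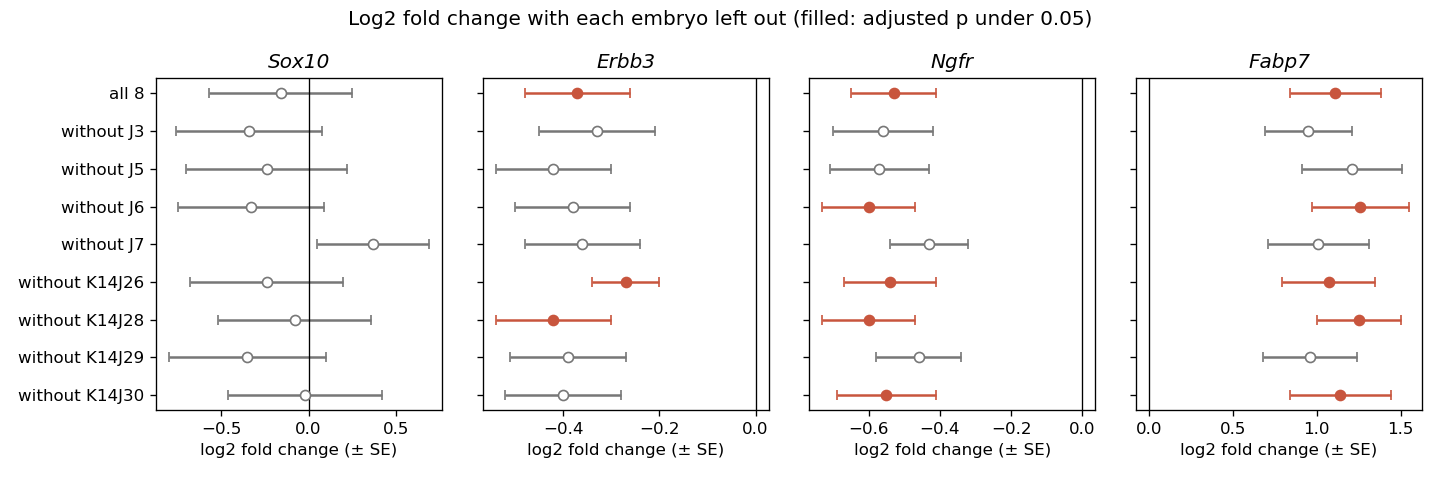
Log2 fold change of mutant over control (horizontal axes) with its standard error for Sox10, Erbb3, Ngfr and Fabp7, with all 8 embryos (top row) and with each embryo left out, filled red where the adjusted p is under 0.05. Fabp7, Ngfr and Erbb3 keep their direction in every row, and Sox10 crosses 0 without J7.

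The genes most like each marker over the 8 embryos were ranked by Pearson's r of log2(CPM + 1) among genes with a mean of at least 1 CPM, as a description of 8 libraries. For Sox10 the 10 nearest were Entpd2, mt-Tm, Plce1, Adcy5, Arhgap31, Myrip, Bcor, Abca8a, Lamb1 and Sfmbt2, with r between 0.865 and 0.933. Of these, 9 were highest in J7, against 13.7% of all tested genes. Sox10 was itself highest in J7, so this count follows in part from how the genes were picked. Entpd2, an enzyme that breaks down extracellular ATP, led with an r of 0.933. Nearest to Fabp7 were Prkcb (r = 0.991), Iqgap2 (0.988) and Krt27 (0.986), nearest to Ngfr were Mllt1 (0.977), Map3k14 (0.975) and Spin1 (0.974), and nearest to Erbb3 were Mrps9 (0.990), Cdkn2c (0.990) and Gsta4 (0.989). For Mbp they were Hinfp (0.971), Faf2 (0.962) and Acad8 (0.962), for S100b Amotl1 (0.918), Angpt2 (0.914) and Sh3pxd2b (0.913), and for Gfra3 Egfl8 (0.927), Mul1 (0.880) and Add1 (0.879). For Foxd3 Mtr (0.887) and Unc45b (0.873) were among the nearest 3.

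Among the 5 markers whose groups overlapped, 10 pairs were compared over the 8 embryos. Sox10 and Gfra3 gave the highest Pearson's r, 0.849 (exact permutation test, two-sided, p = 0.00627, adjusted p = 0.0627), with a Spearman's rho of 0.810 (exact permutation p = 0.0218, adjusted p = 0.0931). Without J7 and K14J29, the 2 embryos farthest from the median of Sox10, r was 0.566, so the relation rested in part on them. None of the 10 pairs had an adjusted p under 0.05 by either coefficient.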

How the data were processed

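Poly(A) RNA from the molars of 8 embryos, 4 of them mutants, was sequenced with single-end reads. The reads, after trimming in Trimmomatic and alignment to GRCm38 in STAR, were deposited by the authors as raw counts per Ensembl gene, 1 table per embryo. For counting the study's methods name GenomicRanges and the submitters' processing notes name featureCounts; the use of strand, reads with several matches and the Ensembl release are not given in the sources used here.

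Symbols, positions and exon lengths came from GENCODE M21 (GRCm38), which names 42462 of 43629 genes. A minimum of 10 counts in 2 of the 4 embryos of either group left 17129 genes, which were scaled by TMM and compared with edgeR 4.0.16 (R 4.3.3) by the quasi-likelihood test, without covariates, with Benjamini-Hochberg adjustment. Standard errors are the absolute log2 fold change over the square root of F. CPM use the TMM-scaled library. Exact permutation tests over 70 arrangements cannot go below p = 0.0286 and gave that value for Fabp7, Ngfr and Erbb3. Embryos of a group differed by at least 7.16 chi-square per degree of freedom, so none was a repeat.

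Named genes were the 8 markers and, from each further list, those that passed and the 4 most abundant. Lists of other cell types are given by counts, sums and single defining markers, and in the other lists genes named after their values were seen are stated as such. Some genes of the lists enter the counts but are not reported here by name. The markers and lists were chosen with earlier results of these data known. Precision was limited by 4 embryos per group, and Sox10, Foxd3 and Gfra3 also had few reads. Without J7 their standard errors went from 0.41, 0.39 and 0.30 to 0.32, 0.36 and 0.26. The parts of read number and of the spread between embryos in these errors were not tested. Alternatives were other scalings, tests and filters, DESeq2 1.42.0, leaving out embryos, and leaving out the 20 most abundant genes.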

Additional observations from a re-analysis of the deposited data

Results flagged for a closer look

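In a group of 4 embryos, a value was singled out where its gap to the nearest other embryo, over the range of the group, exceeded Dixon's critical value, which chance gives in about 1 of 20 groups, and 7 of the 60 groups checked for the 30 genes named by rule were so. All 7 lay in the mutants. Among the markers these were Erbb3 in K14J26 (22.6 CPM, with the next at 29.9) and Gfra3 in K14J28 (0.698 CPM, with the next at 0.814). Among the further genes, K14J28 stood apart in Lingo1 (2.03 CPM), Tnfrsf19 (334 CPM) and Tubb3 (160 CPM), in each case on the side of the controls, K14J30 in Pou3f2 (3.61 CPM) and K14J26 in Uchl1 (50.7 CPM). K14J28 had the lowest sum of enamel genes of the 4 mutants (3500 CPM) and K14J26 the highest (114000 CPM), and the part of this in the values above was not tested.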

How the results depend on the processing

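Mbp and S100b kept their direction and stayed uncalled under all 19 alternatives. Fabp7 and Ngfr kept their direction in all 19 and were called in 14, with adjusted p from 0.00127 to 0.159 and from 0.00198 to 0.15, and Erbb3 was called in 9 of 19 (0.0143 to 0.233). Erbb3 lost its call by library size only (-0.46), without a filter (-0.37) and, by the fold alone, under the criteria of the study (-0.37), so that 1 marker was lower in each. With J6 and J7 left out, the log2 fold changes were 1.18 for Fabp7, -0.46 for Ngfr and -0.36 for Erbb3 and 0 markers were called in either direction. With 1 embryo left out, 0 to 1 markers were higher and 0 to 2 lower. Reversed directions, none called, were those of Sox10 without J7 (0.37) and without J6 and J7 (0.31), of Foxd3 by library size only (-0.04), without J3 (-0.09) or J6 (-0.12), and of Gfra3 by library size only (-0.04), without J3 (-0.02) or J6 (-0.10). Foxd3 had too few reads to be tested without K14J28 or K14J30. By library size only the median of all genes was -0.09. Left-out ranges were -0.35 to 0.37 for Sox10, -0.12 to 0.47 for Foxd3, -0.10 to 0.36 for Gfra3, 0.95 to 1.26 for Fabp7, -0.60 to -0.43 for Ngfr and -0.42 to -0.27 for Erbb3. Of all tested genes, 11.2% were higher and 7.54% lower by the likelihood ratio test, 13.1% and 10% in DESeq2, 7.96% and 8.45% by upper-quartile scaling, 5.04% and 6.22% by library size only, 5.5% and 3.21% without a filter, 10.7% and 8.23% at a mean of at least 1 CPM, 8.33% and 5.85% under the criteria of the study, 0.0178% and 0.0237% without J6 and J7, and 1.48% to 14.6% and 1% to 10.9% with 1 embryo left out. In the lineage list 4 genes were lower by the likelihood ratio test, 1 without a filter and 0 in either direction without J6 and J7, and with 1 embryo left out 2 to 5 were higher and 1 to 2 lower. In the partner list 4 were higher by the likelihood ratio test and in DESeq2, 0 in either direction without J6 and J7, and with 1 embryo left out 0 to 3 higher and 1 to 8 lower. In the neuron list the likelihood ratio test and DESeq2 gave 2 higher and 2 lower, upper-quartile scaling and library size only 0 higher and 1 lower, no filter and a mean of at least 1 CPM 1 lower, the criteria of the study 3 higher and 4 lower, leaving out J6 and J7 0 higher, and leaving out 1 embryo 0 to 3 higher and 0 to 1 lower. The higher neuron gene was Elavl4, named after its values were seen, and not Tubb3 without J6 or without K14J26. The cause of these changes was not tested. Fewer embryos entered the fits that left some out, and the part of embryo number in the changes was not tested either. With all 8 embryos 9.52% of tested genes were higher, against 14.6% without K14J28 and 10.3% without K14J26. Each other fit that left out embryos gave less than 9.52%, with 1.48% without K14J29. No paired analysis was possible because the groups share no replicate number.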
